A study of Mus musculus with 24 samples.

Results

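Interferon-induced virus restriction factors were followed through RNA sequencing libraries of cultured mouse liver endothelial cells in which P16Ink4a was silenced or overexpressed. Ifitm1, Ifitm2, Ifitm3, Bst2, Rsad2, Mx1, Mx2, Ifi27, Ifi35 and Lgals3bp were taken from the count table by gene name, and all 10 of 10 were found as protein coding genes among 56748 listed genes. The 24 libraries came from Cd31+ cells, a general endothelial fraction, and Cd146+ cells, a fraction enriched for sinusoidal endothelium, both isolated with magnetic beads from livers of 3-month-old female C57BL/6 mice. Each population was transduced with 4 lentiviral constructs: nc shRNA (a non-coding hairpin), P16 shRNA (a hairpin against P16), empty vector, or P16 (the P16 cDNA in the same backbone as the empty vector). RNA was taken 1 week after transduction, with 3 libraries per combination of population and construct. All groups, controls included, therefore carried a lentivirus, and the hairpin and cDNA constructs sit in different backbones. No untransduced cells were among the groups, and what a replicate number stands for is not stated.

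Virus restriction factors are proteins that block a step of the viral life cycle inside the infected cell. Most of them are made at a low level until interferon binds its receptor, whereupon the kinases Jak1 and Tyk2 activate transcription factors that bind interferon-stimulated response elements near the start of the target genes. Ifitm1, Ifitm2 and Ifitm3 are small membrane proteins that hinder fusion of enveloped viruses with the cell. Bst2 (tetherin) holds budding virions at the cell surface, Rsad2 (viperin) makes a chain-terminating nucleotide, and Mx1 and Mx2 are dynamin-like GTPases that act on viral nucleoproteins. In C57BL/6 mice the Mx genes carry alleles that give no functional protein, so their RNA is read here as a transcript only. Ifi27 is a small hydrophobic membrane protein, Ifi35 forms a complex with Nmi, and Lgals3bp is a secreted glycoprotein that binds galectins.

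The sequence upstream of the gene start is shown for the members whose window held the response element core, since these letters are what the interferon-activated factors are known to bind. RefSeq promoter windows (build GRCm38.p6) were matched for 7 of the 10 genes, while Mx1, Mx2 and Ifi27 had no entry. The core GAAANNGAA was searched on both strands in the 250 bases before the start, and was found in 3 of the 7 windows, against 7.13% of all 32851 windows of the table. In the lines below, which run 5′ to 3′ on the strand of the gene, capitals mark the core. The windows lie at chr7:140955969-140956037 for Ifitm2, chr8:71537558-71537632 for Bst2 and chr12:26456533-26456601 for Rsad2, all on the minus strand.
Ifitm2: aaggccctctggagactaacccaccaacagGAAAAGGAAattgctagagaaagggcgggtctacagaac
Bst2: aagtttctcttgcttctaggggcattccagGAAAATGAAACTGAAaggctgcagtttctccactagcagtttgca
Rsad2: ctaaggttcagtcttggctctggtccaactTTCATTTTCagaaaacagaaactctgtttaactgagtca

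The core began 46 bases before the start of Ifitm2. In Bst2 it was present in a pair of overlapping copies, beginning 130 and 124 bases before the start, and in Rsad2 it lay on the opposite strand at 119 bases. For Bst2 alone, the bases shortly after this start were not found in the reference transcripts of the gene. Its start, and the distances counted from it, are therefore less certain. The gamma-activated site TTCNNNGAA was found only in the Bst2 window among the 7, at 136 bases, where it overlapped the response element core. This motif was present in 7.02% of all windows. Ifitm1, Ifitm3, Ifi35 and Lgals3bp held neither set of letters in this window, which describes the window alone.

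The members lie on 5 chromosomes. The count table lists Ifitm1 at chr7:140547134-140549738 on the plus strand, with Ifitm2 (chr7:140534750-140535900) and Ifitm3 (chr7:140589499-140590683) close by on the minus strand. Mx1 (chr16:97248235-97264107) and Mx2 (chr16:97336508-97362100) are also neighbours. Ifi35 is listed at chr11:101339233-101349524, Lgals3bp at chr11:118283577-118292918, Bst2 at chr8:71986899-71990100, Rsad2 at chr12:26492745-26506451 and Ifi27 at chr12:103400470-103406498. The submitters' processing notes name mm9, but the build of these listed positions could not be settled, since only 2.95% of the 52125 gene identifiers shared with the GRCm38 annotation have the same start. Of the 50-base windows of each reference transcript, 51.5% were unique to the gene for Ifitm2, which shares sequence with Ifitm3, Gm45717 and 5 other Gm genes, and between 89.3% and 100% for the other 9 genes. Values of Ifitm2 are therefore less certain, as are those of Ifi35, which overlaps Gm11626 on the opposite strand, and of Ifitm3, which overlaps an unnamed gene on the opposite strand.

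The libraries held between 15409767 and 26470392 counted reads, so that 3 counts corresponded to 0.113 to 0.195 CPM (counts scaled to library size with TMM factors over all 24 libraries). Cdkn2a, the gene that encodes P16Ink4a, ranged from 36.7 to 75.6 CPM with nc shRNA and from 5.07 to 9.19 CPM with P16 shRNA in Cd31+ cells, and from 95.1 to 194 and from 7.70 to 25.3 CPM in Cd146+ cells. Cdkn2a was counted per gene, so its transcripts were not told apart. With empty vector it ranged from 32.3 to 81.5 CPM and with P16, whose construct adds its own reads, from 138 to 330 CPM in Cd31+ cells, and from 70.4 to 104 and from 228 to 832 CPM in Cd146+ cells. The silencing log2 fold change of Cdkn2a was -3.08 ± 0.35 (adjusted p = 0.0218, edgeR) in Cd31+ and -3.21 ± 0.53 (adjusted p = 0.361) in Cd146+ cells. In each of the 4 contrasts, all 3 libraries of one group lay outside the range of the other. The endothelial label was checked with 13 markers, whose summed level ranged from 237 to 1687 CPM in Cd31+ libraries and from 710 to 1933 CPM in 9 Cd146+ libraries. In the 3 Cd146+ libraries numbered 3 it was only 21.9 to 50.4 CPM. Of the sinusoidal markers, Stab2 and Clec4g did not exceed 0.949 and 0.224 CPM in any library, Lyve1 reached 7.51 CPM, and Stab1 ranged from 3.68 to 430 CPM. The 9 mesenchymal markers, which include the collagen genes Col1a1 and Col1a2, summed to 2914 to 41180 CPM and exceeded the endothelial sum in every library. Medians over the libraries were 11029, 6692 and 2955 CPM for Col1a1, Col1a2 and Acta2, and at most 394 CPM for each other marker of this list. Macrophage markers summed to 15.8 to 389 CPM, while lymphoid and hepatocyte markers reached at most 8.10 and 2.70 CPM. Cholangiocyte markers reached 144 CPM in Cd146+ empty vector library 4, which also held the lowest mesenchymal sum. The part of this composition in the comparisons with empty vector was not tested. The populations are therefore named below by the antibody used to sort them. In such bulk libraries, fewer cells that make a transcript and less of it per cell cannot be told apart.

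Between genes, levels were compared per length with the deposited FPKM, over the 12 libraries with a control construct. Ifitm3 had the highest median (346 FPKM, range 190 to 487), followed by Ifitm2 (143, range 113 to 291), Ifi27 (79.4, range 38.4 to 123) and Bst2 (48.3, range 12.1 to 172). Lgals3bp (24.6, range 9.94 to 66.0) and Ifi35 (9.83, range 5.12 to 17.5) came next. Ifitm1 (1.17 FPKM), Rsad2 (0.179), Mx2 (0.157) and Mx1 (0.0442) were near the limit of detection, and Mx1 and Mx2 had no reads in at least 1 library. Neighbours in this order overlapped in range, apart from Ifi35, whose lowest library was above the highest library of Ifitm1. The order by CPM per kilobase was the same.

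**Figure D1:**
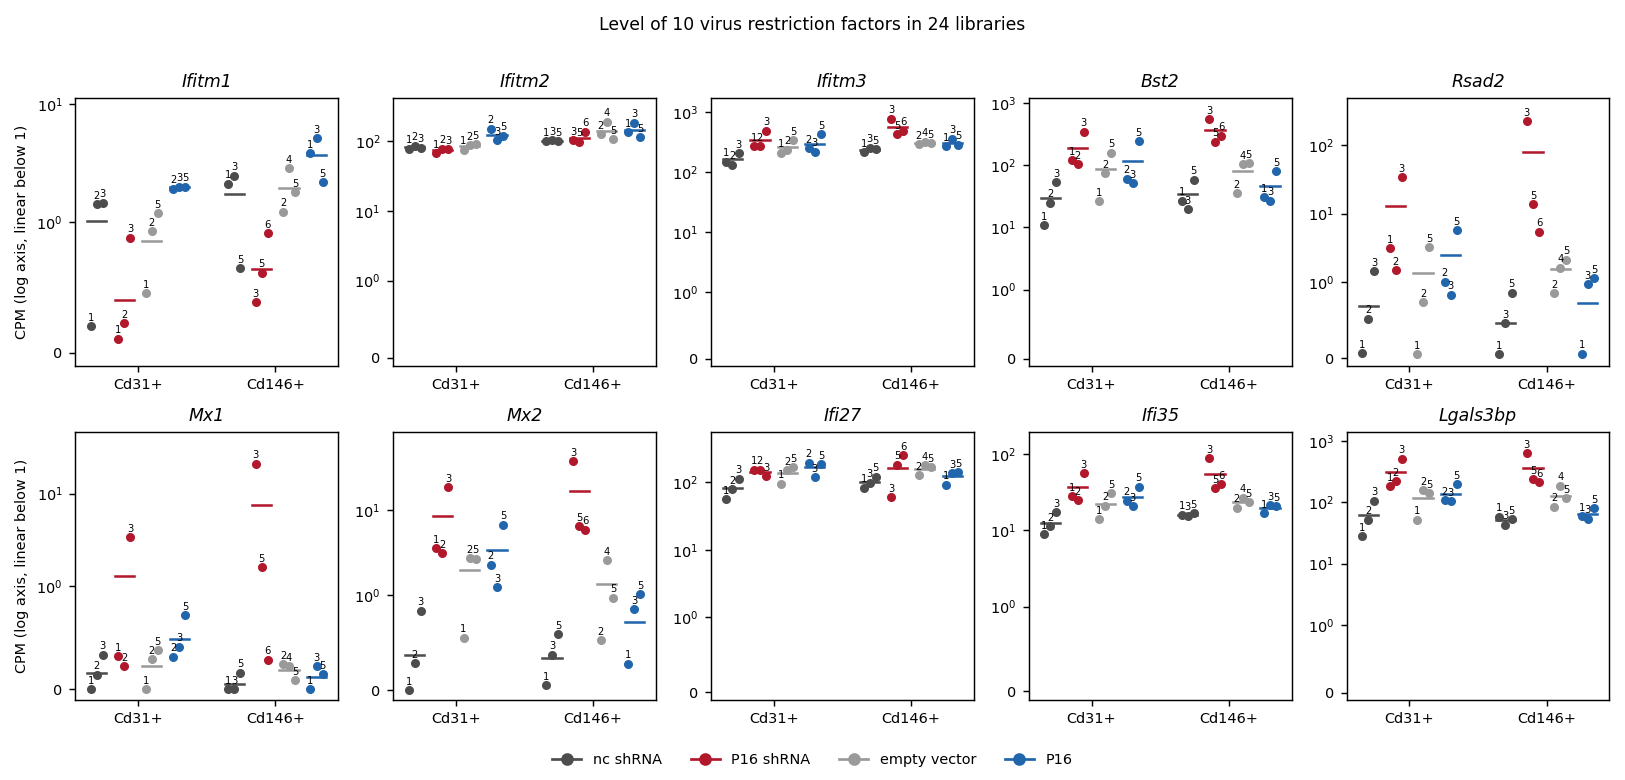
CPM of each of the 10 genes in the 24 libraries (vertical axis logarithmic above 1 CPM and linear below it), with points for libraries labelled by replicate number, bars for group means and colours for constructs. In both populations the P16 shRNA library numbered 3 holds the highest level of Ifitm3, Bst2, Rsad2, Mx1, Mx2, Ifi35 and Lgals3bp.

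Silencing was examined first, to ask which restriction factors differed in cells with less P16Ink4a. In Cd31+ cells, 7 of the 9 members that passed the filter on low counts had a higher level after silencing, with nc shRNA as the control, at an unadjusted p under 0.05, against 9.51% of the 14358 genes tested. The 7 were Ifitm3, Bst2, Rsad2, Mx2, Ifi27, Ifi35 and Lgals3bp. In each of them all 3 silenced libraries lay above all 3 controls, as did 13% of genes. None of the 9 passed an adjusted p under 0.05, which 1.3% of genes did, and their lowest adjusted p was 0.112 (edgeR). Libraries of the same replicate number resembled each other across constructs, and with the number as a block over the 12 Cd31+ libraries the same 7 members rose at an adjusted p under 0.05, against 7.95% of genes (5 residual degrees of freedom). DESeq2 placed 6 members, these without Rsad2, past an adjusted p under 0.05, against 3.83% of genes.

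Among the entry inhibitors, Ifitm3 was at 149, 133 and 207 CPM with nc shRNA and at 268, 268 and 484 CPM with P16 shRNA in Cd31+ libraries 1, 2 and 3. The difference was 1.08 ± 0.29 on the log2 scale (log2 fold change ± SE; adjusted p = 0.121, and 0.0030 with the block). Ifitm2 did not follow its neighbour: it was at 77.6, 86.5 and 80.7 CPM in the controls and at 67.5, 78.2 and 76.3 CPM after silencing, and the groups overlapped (log2 fold change -0.13 ± 0.10, adjusted p = 0.539). Ifitm1 was at 0.201, 1.41 and 1.45 CPM in the controls and at 0.107, 0.223 and 0.877 CPM after silencing. Its log2 fold change of -1.30 ± 0.89 rested on 59 control and 25 silenced reads, and the groups overlapped. With the block the unadjusted p of Ifitm1 was 0.0139 (adjusted p = 0.0697, edgeR).

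Tetherin showed a wider separation. Bst2 was at 10.9, 24.7 and 53.2 CPM with nc shRNA and at 119, 104 and 344 CPM with P16 shRNA (log2 fold change 2.69 ± 0.73, adjusted p = 0.131, and 0.0093 with the block). Lgals3bp, which was similarly abundant, was at 28.3, 52.4 and 106 CPM in the controls and at 183, 221 and 520 CPM after silencing (2.32 ± 0.62, adjusted p = 0.126, and 0.0048 with the block). For both genes the highest control library, number 3, remained below the lowest silenced library.

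Rsad2 and Mx2 had the largest log2 fold changes of the members tested, with the largest errors. Rsad2 was at 0.0671, 0.518 and 1.45 CPM with nc shRNA and at 3.10, 1.503 and 33.9 CPM with P16 shRNA (log2 fold change 4.22 ± 1.49, adjusted p = 0.199, and 0.0289 with the block). Library 3 was far above the other silenced libraries, and without it the log2 fold change was 1.74. Mx2 was at 0, 0.283 and 0.839 CPM in the controls and at 3.58, 3.12 and 18.6 CPM after silencing (4.46 ± 1.18, adjusted p = 0.125, and 0.0158 with the block). Mx1 did not pass the filter on low counts. It had 9 reads in the 3 controls and 83 in the 3 silenced libraries, 73 of them in library 3, a ratio of 8.54 (95% counting interval 4.29 to 19.3).

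Ifi35 was at 8.86, 11.4 and 17.5 CPM with nc shRNA and at 28.2, 25.0 and 56.8 CPM with P16 shRNA (log2 fold change 1.56 ± 0.40, adjusted p = 0.112, and 0.0010 with the block). Ifi27 differed from the rest in its pattern over the libraries. It was at 56.4, 79.0 and 113 CPM in the controls and at 155, 154 and 125 CPM after silencing, so that library 3, the highest for the other induced members, was the lowest for Ifi27 (0.81 ± 0.25, adjusted p = 0.151, and 0.0436 with the block).

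In Cd146+ cells, 6 of 9 members were higher with P16 shRNA at an unadjusted p under 0.05, against 5.44% of 15124 genes: Ifitm3, Bst2, Rsad2, Mx2, Ifi35 and Lgals3bp. Their 3 silenced libraries lay above all 3 controls, as did those of 10.4% of genes. No gene of the whole table passed an adjusted p under 0.05 in this contrast (0% called by edgeR), so that no member did, while DESeq2 placed these 6 members past it, against 1.07% of genes higher by that test. With the replicate number as a block over the 12 Cd146+ libraries, Ifitm3, Mx2 and Ifi35 rose at an adjusted p under 0.05, against 3.53% of genes (3 residual degrees of freedom). Silenced library 6 shares its number with no other Cd146+ library. The block therefore absorbs it, and the blocked estimate rests on silenced libraries 3 and 5. With the block over the 6 libraries of the comparison, which leaves 1 residual degree of freedom, no member and no gene passed (0%), and the adjusted p was 0.166 for Ifitm3 and Mx2 and 0.202 for Ifi35 (edgeR).

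Ifitm3 was at 215, 255 and 238 CPM with nc shRNA (libraries 1, 3 and 5) and at 777, 429 and 489 CPM with P16 shRNA (libraries 3, 5 and 6), a log2 fold change of 1.27 ± 0.26 (adjusted p = 0.382, and 0.0062 with the block). Bst2 was at 26.7, 19.4 and 58.2 CPM in the controls and at 545, 237 and 298 CPM after silencing (3.38 ± 0.54, adjusted p = 0.361, and 0.110 with the block). Lgals3bp was at 57.9, 43.2 and 53.6 CPM in the controls and at 639, 239 and 214 CPM after silencing (2.83 ± 0.47, adjusted p = 0.361, and 0.0622 with the block). For each of these abundant members the lowest silenced library lay above the highest control, and silenced library 3 was the highest of all.

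Rsad2 ranged most widely. It was at 0.0539, 0.461 and 0.859 CPM with nc shRNA and at 223, 13.7 and 5.43 CPM with P16 shRNA (log2 fold change 7.46 ± 1.82, adjusted p = 0.382, and 0.0862 with the block). Without silenced library 3 it was 4.37. Mx2 was at 0.0539, 0.377 and 0.591 CPM in the controls and at 37.3, 6.44 and 5.91 CPM after silencing (5.58 ± 1.11, adjusted p = 0.382, and 0.0180 with the block). Mx1 had 3 reads in the 3 controls and 537 in the 3 silenced libraries, of which 486 came from library 3, a ratio of 152 (95% counting interval 51.8 to 740).

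Ifi35 was at 16.1, 15.7 and 16.7 CPM with nc shRNA and at 89.1, 35.7 and 40.5 CPM with P16 shRNA (log2 fold change 1.78 ± 0.37, adjusted p = 0.382, and 0.0357 with the block). Ifi27 was at 83.4, 99.5 and 121 CPM in the controls and at 60.1, 184 and 254 CPM after silencing, and the groups overlapped because silenced library 3 was below every control (0.72 ± 0.50, adjusted p = 0.562). Ifitm2 was at 99.5, 103 and 99.98 CPM in the controls and at 103, 98.8 and 136 CPM after silencing (0.17 ± 0.19, adjusted p = 0.716). Ifitm1 was at 2.10, 2.47 and 0.644 CPM in the controls and at 0.387, 0.611 and 0.913 CPM after silencing (-1.44 ± 0.64, adjusted p = 0.442). With the block over 12 libraries the unadjusted p of Ifitm1 was 0.0218 (adjusted p = 0.118, edgeR).

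Cell type markers also differed between the constructs. In all 5 pairs of libraries with the same number, the endothelial sum was lower and the mesenchymal sum higher with P16 shRNA. In Cd31+ cells the endothelial sum was 380, 412 and 782 CPM with nc shRNA and 237, 373 and 492 CPM with P16 shRNA in libraries 1, 2 and 3. In Cd146+ cells it was 50.4 and 1435 CPM with nc shRNA and 21.9 and 1332 CPM with P16 shRNA in libraries 3 and 5. The corresponding mesenchymal sums went from 33110, 17370 and 25630 to 41180, 19240 and 27910 CPM in Cd31+ cells, and from 23480 and 23740 to 25330 and 25900 CPM in Cd146+ cells. The unpaired Cd146+ libraries, nc shRNA 1 and P16 shRNA 6, had endothelial sums of 817 and 1284 CPM and mesenchymal sums of 8241 and 21060 CPM. Silenced library 3 of the Cd146+ cells thus held both the highest level of 7 members and the lowest endothelial sum of all libraries. The part of these markers in the result was not tested. Without both libraries numbered 3, the count of members at an unadjusted p under 0.05 was 7 in each population. Of all genes, 10.6% passed in Cd31+ and 9.05% in Cd146+ cells, in either direction. The 7 of the Cd146+ cells include Ifi27, which did not pass with every library. The median log2 fold change of the members tested was 1.88 in place of 1.56 for Cd31+ and 1.21 in place of 1.78 for Cd146+ libraries, while the median of all genes tested with every library was 0.00342 and 0.0255.

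**Figure D2:**
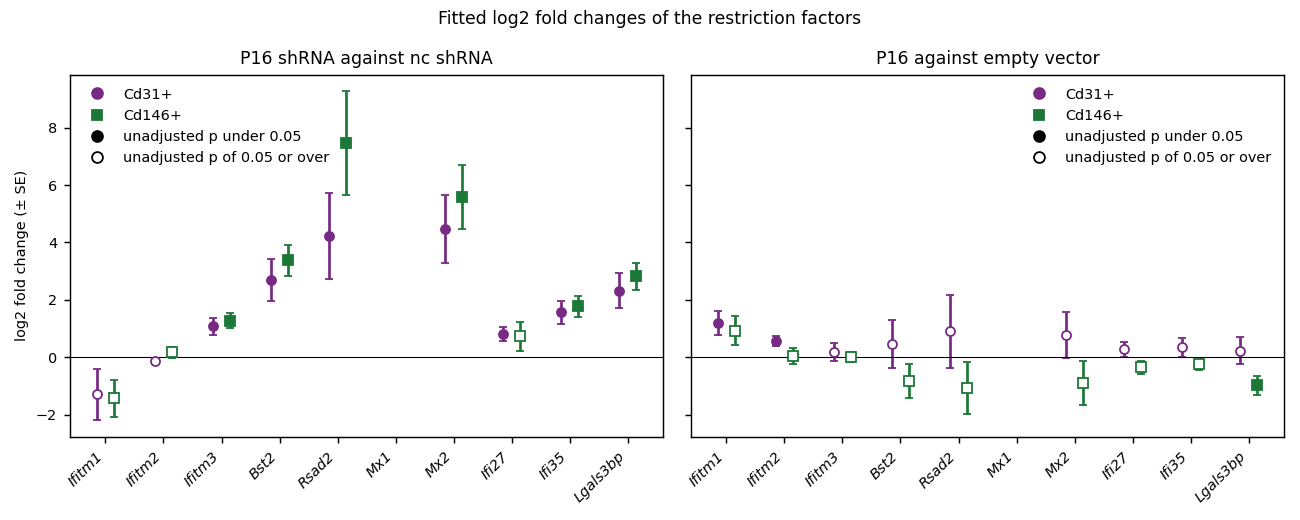
Log2 fold change with its standard error for each member (edgeR), with P16 shRNA against nc shRNA on the left, P16 against empty vector on the right, circles for Cd31+ and squares for Cd146+ cells, and filled symbols for an unadjusted p under 0.05. On the left, Bst2, Rsad2, Mx2 and Lgals3bp lie above 2 in both populations, and Mx1, which did not pass the filter, is not drawn.

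Libraries of the same number can also be set against each other directly. In Cd31+ cells the log2 CPM difference of Bst2 between P16 shRNA and nc shRNA was 3.44, 2.07 and 2.69 in numbers 1, 2 and 3, and that of Lgals3bp was 2.69, 2.08 and 2.29. In Cd146+ cells only numbers 3 and 5 occurred in both groups, and the difference of Bst2 was 4.81 and 2.02. Ifitm2 differed by no more than 0.20 in size in any of the 5 same-numbered pairs. Ifi27 was higher after silencing in 4 of these pairs and lower, by -0.73, in number 3 of the Cd146+ cells. Ifitm1 was lower after silencing in all 5 pairs, by -0.55, -2.24 and -0.67 in the Cd31+ and by -2.41 and -0.07 in the Cd146+ cells.

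**Figure D3:**
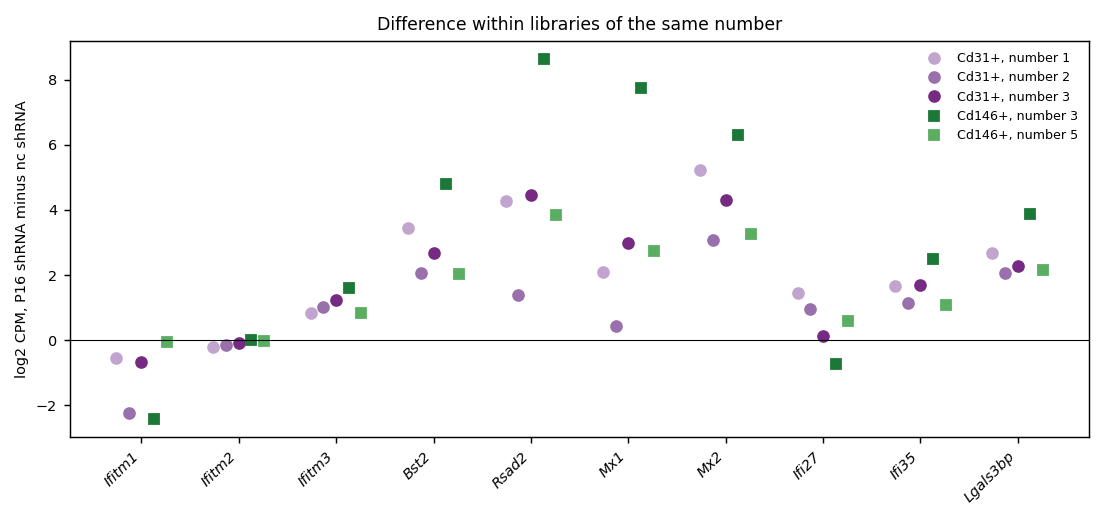
Log2 CPM with P16 shRNA minus log2 CPM with nc shRNA for libraries of the same replicate number, for each member, with circles for 3 pairs of Cd31+ and squares for 2 pairs of Cd146+ libraries. Ifitm3, Bst2, Rsad2, Mx1, Mx2, Ifi35 and Lgals3bp are above 0 in all 5 pairs, and Ifitm2 is within 0.20 of 0.

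No difference in the silencing effect between the populations passed an unadjusted p under 0.05 for any of the 10 members, against 0.599% of 16524 genes higher and 0.605% lower in Cd146+ cells. The difference, Cd146+ minus Cd31+, was 4.11 ± 2.24 on the log2 scale for Mx1 (adjusted p = 1.00), 3.25 ± 2.13 for Rsad2 and between -0.13 and 1.13 for the other 8. With the replicate block, Mx1 passed an unadjusted p under 0.05 (4.06 ± 1.83, adjusted p = 0.986, edgeR). Standard errors above 2 mean that even large differences in Mx1 and Rsad2 could not be resolved with these libraries.

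The control hairpin was also compared with the empty vector. In Cd31+ cells 8 of 9 members were lower with nc shRNA than with empty vector in fitted value, and Ifitm3 was lower at an unadjusted p under 0.05 (log2 fold change -0.67 ± 0.24, adjusted p = 0.992), against 1.73% of genes. Its 3 nc shRNA libraries lay below all 3 empty vector libraries, as did those of 4.33% of genes. With the number as a block over these 6 libraries, 6 members were lower at an adjusted p under 0.05, against 1.9% of genes, but this fit had only 1 residual degree of freedom and over the 12 libraries no member passed. In Cd146+ cells 9 of 9 were lower in fitted value. Ifitm3 (-0.36 ± 0.14), Ifi27 (-0.65 ± 0.21), Ifi35 (-0.54 ± 0.18) and Lgals3bp (-1.33 ± 0.33) were lower at an unadjusted p under 0.05, against 2.13% of genes, all with an adjusted p of 0.907 (edgeR). Those 4 and Ifitm2 had no overlap between the groups, which 5.2% of genes showed. Empty vector libraries 2 and 4 share their number with no other Cd146+ library, so a block leaves library 5 alone to stand for that group. With the block over the 12 Cd146+ libraries only Ifitm3 remained (unadjusted p = 0.0473), and the unadjusted p was 0.686 for Ifi27, 0.176 for Ifi35 and 0.150 for Lgals3bp (edgeR).

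The silenced cells were set against empty vector as well. With empty vector in place of nc shRNA in Cd31+ cells and no block, only Lgals3bp was higher with P16 shRNA at an unadjusted p under 0.05 (log2 fold change 1.396, adjusted p = 0.290), against 7.46% of genes. The log2 fold change of Ifitm3 was then 0.39 in place of 1.08, and that of Bst2 was 1.14 in place of 2.69. With the block over 12 libraries, 6 members were higher at an unadjusted p under 0.05, against 11% of genes. They were Ifitm3 (0.51 ± 0.19), Bst2 (1.71 ± 0.49), Rsad2 (3.82 ± 1.04), Mx2 (2.16 ± 0.82), Ifi35 (0.86 ± 0.23) and Lgals3bp (1.41 ± 0.37), and Ifi35 alone rose at an adjusted p under 0.05, against 3.9% of genes. Against all 9 other Cd31+ libraries, none of the 10 members had its 3 silenced libraries on top, and P16 library 5 was the highest of the 9 for 8 members, all but Ifitm2 and Ifi27. In Cd146+ cells the same 6 members stayed higher against empty vector at an unadjusted p under 0.05, against 5.13% of genes, and Ifitm1 was lower (-1.58, adjusted p = 0.422), against 5.85% of genes. With the block over the 12 Cd146+ libraries only Ifitm3 and Mx2 of the 6 remained, against 6.11% of genes, and no member passed an adjusted p under 0.05, against 0.189%. That blocked fit rests on empty vector library 5 and silenced libraries 3 and 5. In Cd146+ cells Ifitm3, Bst2, Rsad2, Mx1, Mx2, Ifi35 and Lgals3bp were higher in all 3 silenced libraries than in all 9 others. The margin was narrow for Lgals3bp, with 214 against 187 CPM, and for Mx1, with 0.288 against 0.244 CPM. Empty vector library 4 was the highest of the 9 for Ifitm2, Mx2, Ifi27, Ifi35 and Lgals3bp. The share of all genes with 3 silenced libraries above the 9 others was not counted in either population. These orders of the members therefore have no background to be read against.

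Overexpression of P16 was compared with empty vector to ask whether more P16Ink4a moved the same genes. In Cd31+ cells, Ifitm1 and Ifitm2 were higher with P16 at an unadjusted p under 0.05, 2 of 9 members against 1.45% of 14565 genes. Their 3 P16 libraries lay above all 3 controls, as did those of 4.45% of genes. Ifitm1 was at 0.455, 0.928 and 1.18 CPM with empty vector (libraries 1, 2 and 5) and at 1.91, 1.99 and 2.00 CPM with P16 (libraries 2, 3 and 5), a log2 fold change of 1.19 ± 0.42. Ifitm2 was at 75.3, 87.6 and 90.2 CPM with empty vector and at 152, 103 and 119 CPM with P16 (0.56 ± 0.17). No gene of the table passed an adjusted p under 0.05 (0%), and both had an adjusted p of 0.947 (edgeR). With the replicate block, Ifitm2 alone remained at an unadjusted p under 0.05. The other 7 tested members lay between 0.19 and 0.90 in log2 fold change and overlapped between groups, and 5 of them, Ifitm3, Bst2, Rsad2, Mx2 and Lgals3bp, turned negative without P16 library 5. Mx1 had 15 reads with empty vector and 28 with P16, a ratio of 2.04 (95% counting interval 1.06 to 4.12).

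In Cd146+ cells, Lgals3bp was the only member that differed at an unadjusted p under 0.05, and it was lower with P16, against 1.99% of 14860 genes. It was at 84.3, 187 and 116 CPM with empty vector (libraries 2, 4 and 5) and at 59.3, 54.1 and 81.1 CPM with P16 (libraries 1, 3 and 5), without overlap, as for 5.5% of genes (log2 fold change -0.99 ± 0.34, adjusted p = 0.986). No gene passed an adjusted p under 0.05 (0%), and the block left no member at an unadjusted p under 0.05. Ifitm1 was at 1.22, 2.85 and 1.78 CPM with empty vector and at 3.84, 5.13 and 2.16 CPM with P16 (0.92 ± 0.50), with overlapping groups. Bst2 (-0.82 ± 0.60), Rsad2 (-1.09 ± 0.91) and Mx2 (-0.91 ± 0.77) were lower in fitted value, within errors of similar size. Mx1 had 13 reads with empty vector and 7 with P16, a ratio of 0.667 (95% counting interval 0.225 to 1.80). No member differed between the populations in its response to P16 at an unadjusted p under 0.05, against 2.04% of genes higher and 1.78% lower in Cd146+ cells.

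Between the populations themselves, compared over the 12 libraries with control constructs and with the construct as a term, Ifitm2 and Ifitm3 were higher in Cd146+ cells at an unadjusted p under 0.05, against 8.34% of 15676 genes. The log2 difference was 0.52 ± 0.14 for Ifitm2 (adjusted p = 0.145) and 0.38 ± 0.14 for Ifitm3 (adjusted p = 0.221). For the other 7 tested members it lay between -0.37 and 0.97.

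The members fell into separate patterns over the 24 libraries. The correlation of log2 CPM with the mean of the other 9 members was 0.972 for Ifi35, 0.941 for Mx2, 0.925 for Bst2, 0.917 for Rsad2 and Lgals3bp, 0.883 for Ifitm3 and 0.856 for Mx1. It was 0.366 for Ifi27, 0.121 for Ifitm2 and -0.185 for Ifitm1, while Ifitm1 and Ifitm2 correlated with each other at 0.725. Without the 6 P16 shRNA libraries, Ifi27 followed the others at 0.932 over 18 libraries. These are descriptions, since the libraries share constructs, replicate numbers and, for the Ifitm genes, sequence. Outside the members, the 8 genes of 16514 whose log2 CPM was closest to the mean of the members were Ifit3b (r = 0.968), Cmpk2 (0.967), Ifit3 (0.961), Ifit1 (0.959), Igtp (0.958), Xaf1 (0.955), Usp18 (0.943) and Isg15 (0.942).

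**Figure D4:**
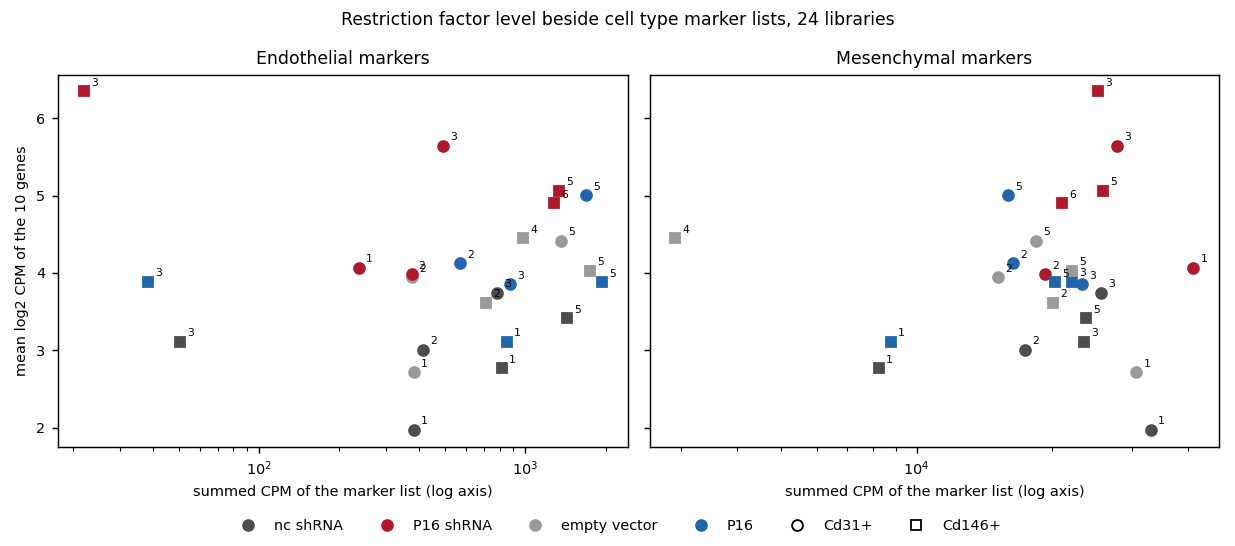
Mean log2 CPM of the 10 genes against the summed CPM of the endothelial markers (left) and of the mesenchymal markers (right), both on logarithmic horizontal axes, with a point for each of 24 libraries labelled by replicate number, colours for constructs, circles for Cd31+ and squares for Cd146+. The Cd146+ libraries numbered 3 lie at 21.9 to 50.4 CPM of endothelial markers, and P16 shRNA library 3 has the highest mean of the members in both populations.

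The rest of the interferon pathway was read from lists of ligands and receptors, signal transducers, feedback regulators, partners and other restriction factors. Ifna1, Ifnl2 and Ifnl3 had no read in any library, and Ifnb1, the interferon that most cell types can make, had 14 reads in all, 8 of them in P16 shRNA library 3 of the Cd146+ cells. Of the 15 ligands and receptors only 6 passed the filter in either population, and of these Ifnar2 alone differed after silencing at an unadjusted p under 0.05 (higher in Cd31+ cells, 0.33). Ifnar1, a chain of the type I interferon receptor, was at 94.7 ± 11.9 CPM with nc shRNA and 85.2 ± 3.68 CPM with P16 shRNA in Cd31+ cells (SD, n = 3). Ifngr1 and Ifngr2, the chains of the interferon gamma receptor, had log2 fold changes between -0.13 and 0.04 over both populations.

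Among the 10 signal transducers, 6 were higher and 1 lower after silencing in Cd31+ cells at an unadjusted p under 0.05, where 9.51% and 10.3% of all genes were. In Cd146+ cells 5 were higher and 1 lower, where 5.44% and 6.18% of all genes were. With the block over 12 libraries, 6 were higher and 1 lower at an adjusted p under 0.05 in Cd31+ cells, against 7.95% and 8.81% of genes. In Cd146+ cells that fit gave 5 higher and 0 lower, against 3.53% and 4.8% (edgeR). Irf7, the factor that amplifies the type I interferon response, was at 1.48, 3.82 and 6.77 CPM in the controls and at 19.3, 21.2 and 88.8 CPM after silencing in Cd31+ cells. In Cd146+ cells it was at 1.78, 3.56 and 2.95 CPM and at 187, 37.3 and 34.7 CPM. Stat2 had log2 fold changes of 1.87 and 2.02, and Jak1, the most abundant of the list, was the member lower in both populations (-0.42 and -0.48). Jak2 had -0.08 and -0.45 and did not pass in either.

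Of the 7 feedback regulators, 2 were higher in each population at an unadjusted p under 0.05. Usp18, which removes Isg15 from proteins and dampens receptor signalling, was higher in both (log2 fold change 4.46 and 5.92), with Socs3 beside it in Cd31+ cells (0.49) and Socs1 in Cd146+ cells (1.47). Socs1 had a similar value of 1.35 in Cd31+ cells (unadjusted p = 0.0535, and adjusted p = 0.0186 with the block, edgeR). Socs3 had -0.35 in Cd146+ cells and did not pass, and neither did Pias1 (-0.25 and -0.24) or Ptpn2 (0.08 and 0.18). Of 14 relatives and partners, 11 passed the filter, and at an unadjusted p under 0.05 the Cd31+ cells had 3 higher and 3 lower, against 9.51% and 10.3% of all genes, and the Cd146+ cells 5 higher, against 5.44%. Cmpk2, a nucleotide kinase encoded next to Rsad2, had a log2 fold change of 3.88 ± 1.48 in Cd31+ cells and 7.28 ± 1.59 in Cd146+ cells, close to those of Rsad2. Nmi, the partner of Ifi35, had 1.04 ± 0.33 and 2.09 ± 0.64. Among the most abundant of this list, Dnm2, a dynamin related to the Mx proteins, had -0.23 and -0.20, Dnm1l had -0.03 and -0.02, and the galectin Lgals9 had 0.38 and 0.79. Dnm2 passed in Cd31+ and Lgals9 in Cd146+ cells, but no gene of this list passed an unadjusted p under 0.05 for a difference in the silencing effect between the populations.

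All 23 other restriction factors passed the filter. At an unadjusted p under 0.05 silencing gave 12 higher and 1 lower with Cd31+ libraries, against 9.51% and 10.3% of all genes. With Cd146+ libraries it gave 10 higher and 1 lower, against 5.44% and 6.18%. No gene of any list passed an adjusted p under 0.05 without the block (edgeR). The 1 lower gene was Serinc3 in both (log2 fold change -0.63 and -0.78). Serinc3, a membrane protein, was also the most abundant of the list, at 707 ± 103 CPM with nc shRNA and 454 ± 35.2 CPM with P16 shRNA in Cd31+ cells. Samhd1, a nucleotide hydrolase (0.15 and 0.29), and Zc3hav1, a protein that binds viral RNA (0.26 and 0.67), did not pass in either population. With the block over 12 libraries, 14 of the 23 were higher and 1 lower at an adjusted p under 0.05 in Cd31+ cells, against 7.95% and 8.81% of genes. In Cd146+ cells 6 were higher and 0 lower, against 3.53% and 4.8% (edgeR). The median log2 fold change of the 23 genes without the block was 0.76 (Cd31+) and 0.96 (Cd146+), and that of the 9 members tested was 1.56 and 1.78. With P16 against empty vector the medians were 0.08 and -0.20, and no gene of the list was higher at an unadjusted p under 0.05 in either population.

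Bst2 is also a surface marker of plasmacytoid dendritic cells, and markers of other cell types were therefore set beside it. Of 7 markers listed for these cells, Siglech and Klk1 had 6 and 4 reads in all 24 libraries, while Cox6a2 and Irf8 had 882 and 1062. The summed level of the 7 markers was 43.7 to 97.7 CPM with P16 shRNA and 55.8 to 103 CPM with nc shRNA in Cd31+ cells. In Cd146+ cells it was 63.5 to 136 CPM and 58.8 to 150 CPM. Nearly all of this sum was Tcf4 (41.9 to 147 CPM), a gene that other cells also express, and no other marker of the list exceeded 5.69 CPM. Macrophage markers summed to 29.3 to 109 CPM with P16 shRNA and 38.3 to 142 CPM with nc shRNA in Cd31+ cells, and to 16.4 to 267 and 25.2 to 313 CPM in Cd146+ cells, with Clec4f, the Kupffer cell marker, at 7 reads in all. For both lists the ranges with P16 shRNA and nc shRNA overlapped in each population. The macrophage sum was lower with P16 shRNA in all 5 pairs of the same number, from 142, 68.9 and 38.3 to 109, 47.9 and 29.3 CPM in Cd31+ cells and from 25.2 and 313 to 16.4 and 267 CPM in Cd146+ cells.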

How the data were processed

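The count table holds whole numbers of reads counted per gene, as deposited by the authors without normalization, for 24 libraries (poly-A RNA, 3 per group). The authors also deposited FPKM, used here for levels between genes, and columns of their own comparisons, which hold fold changes and p-values and were not used. Aligner and counter are not given in the sources used here, the processing notes of the submitters name fastp and mm9, and whether reads were counted by strand is not stated, so a gene and its antisense partner cannot be told apart. The members and lists were chosen with earlier results of these data known. Named genes were the members, Cdkn2a, Ifnb1, Irf7, Cmpk2, Nmi, the 3 most abundant genes of each list and the 8 genes closest to the mean of the members. A further gene of the rule is not reported here. Other genes named from the lists (Ifnar2, Usp18, Socs1, and the ligands without reads) were chosen after their values were seen.

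Counts were analysed in R 4.3.3 with edgeR 4.0.16 (filterByExpr, TMM, robust quasi-likelihood fit, two-sided test, Benjamini-Hochberg adjustment over all genes tested), each contrast on its own 6 libraries, and the differences between populations on all 24. The fit without a block was run on simulated independent counts with the same dispersion for every gene. This covered silencing in Cd31+ cells and the difference of the silencing effect, and checked only that median fold changes were recovered. The blocked fits and the likeness of same-numbered libraries were not simulated. Log2 CPM used a prior count of 2. A count of 3 was the floor. Intervals and floors cover counting error only. DESeq2 1.42.0, its size factors, no filter, the replicate block and leaving out libraries were alternatives, as were, added after seeing the data, empty vector as the control of P16 shRNA (with and without the block) and leaving out the libraries numbered 3. Replicate numbers come from the labels, which do not say whether libraries stem from separate mice or cultures, so p-values measure the spread between libraries. Deviations from the group means were correlated between libraries. For equal numbers the median r was 0.559 in Cd31+ (13 pairs, lowest 0.384) and 0.711 in Cd146+ cells (10 pairs, lowest 0.389). For unequal numbers it was -0.174 and -0.0725. The number therefore served as a block in the alternative fits and for differences within same-numbered libraries. The main contrasts held no replicate term and did not use this pairing.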

Additional observations from a re-analysis of the deposited data

How the results depend on the processing

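Calls of silencing depended on the block and on the tool. Members at an adjusted p under 0.05 numbered 0 in both populations without a block. With the replicate block they numbered 7 over the 12 Cd31+ libraries (16.8% of all genes passed in either direction) and 6 over the 6 libraries of the comparison (18.8%), and 3 (8.33%) and 0 (0%) in Cd146+ cells. DESeq2's Wald test gave 6 in each population (8.7% and 2.61% of genes), and keeping all genes with at least 1 count gave 4 in Cd31+ cells (3.73%). Against empty vector, 1 Cd31+ member remained at an unadjusted p under 0.05 (17% of genes) and 7 with the block (24.6%), of which 1 passed an adjusted p, while in Cd146+ cells 7 became 3 with the block (15% of genes), the median log2 fold change of the members was 1.12 in place of 1.78, and Ifitm2 and Ifi27 turned to -0.1922 and -0.2403. The cause of these changes was not tested. In Cd146+ cells the log2 fold change of Ifitm2 turned to -0.00484 and -0.0256 and that of Ifi27 to -0.0549 and -0.0310 under the block (6 and 12 libraries), and Ifitm2 to -0.30 against empty vector. For P16 against empty vector in Cd31+ cells, members at an unadjusted p under 0.05 numbered 2 without a block (3.73% of genes). They numbered 1 under the blocks of 6 and 12 libraries (7.98% and 11.4%). Under the block Lgals3bp turned to -0.0300 and -0.2075 and Bst2 to -0.0789 in Cd31+ cells, and in Cd146+ cells Ifitm3 turned to -0.1259 and Ifi27 to 0.0799. For nc shRNA against empty vector in Cd31+ cells, the count at an unadjusted p under 0.05 went from 1 (3.16% of genes) to 2 with no filter or with DESeq2 size factors (3.06% and 3.17%), to 4 with DESeq2's test (3.25%), and to 6 (13.1%; 6 also at an adjusted p) and 3 (10.4%) under the blocks of 6 and 12 libraries. In Cd146+ cells it was 4 without a block (3.99% of genes), and the block leaves only empty vector library 5 to stand for that group. DESeq2 called 1 member, Ifitm2, between the populations at an adjusted p (4.33% of genes). It called 1, Mx1, for the difference of the silencing effect at an unadjusted p (1.36%), as did the block (4.55%). No block within the 6 libraries was possible for the Cd146+ contrasts against empty vector, which share only number 5. In the 12 Cd146+ libraries, numbers 2, 4 and 6 do not recur. Their block terms therefore absorb empty vector libraries 2 and 4 and silenced library 6.

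With 1 library left out at a time, the members at an unadjusted p under 0.05 numbered 5 to 7 for silencing in Cd31+ cells. In Cd146+ cells they numbered 6 to 8. Of all genes, 13.5% to 19.4% and 5.12% to 14.9% passed in either direction. For P16 the members numbered 1 to 2 and 0 to 2 (Cd31+, then Cd146+), against 1.25% to 6.95% and 1.42% to 8.47% of genes. For nc shRNA against empty vector they numbered 0 to 6 and 1 to 5, against 2.36% to 4.26% and 1.19% to 9.72%. For the differences of the silencing and P16 effects between populations they numbered 0 to 2 and 0 to 1, against 0.818% to 4.12% and 2.11% to 7.52%. The 0 for nc shRNA came without nc shRNA library 1 or 2 or empty vector library 5, the 6 without nc shRNA library 3, and the 1 in Cd146+ cells without nc shRNA library 3 or empty vector library 4. The 2 for the silencing difference came without Cd31+ P16 shRNA library 3. In silencing, Ifitm2 of the Cd146+ cells ranged from -0.0306 to 0.271. For P16 in Cd31+ cells the log2 fold change ranged from -0.17 to 0.42 for Ifitm3, -0.63 to 1.23 for Bst2, -0.56 to 2.66 for Rsad2, -0.19 to 1.18 for Mx2 and -0.16 to 0.53 for Lgals3bp. In Cd146+ cells it ranged from -0.14 to 0.34 for Ifitm2 and -0.1027 to 0.0812 for Ifitm3. Depth limits Mx1, Mx2, Rsad2 and Ifitm1, which lie near 3 counts in several libraries.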
